A study of Mus musculus with 2 samples.

Results

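The variable (V) segments of the T cell receptor alpha and beta genes were described in splenic T cells of 2 groups of mice. The members were all genes of the count tables whose symbol begins with Trav or Trbv and a digit, which gave 163 of 30905 genes, 128 Trav and 35 Trbv. Prmt5 CKO mice carried a CD4-Cre transgene and a floxed Prmt5 gene (CD4-Cre+ PRMT5fl/fl, strain C57BL/6), and control mice were given as C57BL/6 controls. CD3+ T cells were sorted from spleen, cells of 3 mice were pooled per group, and each group gave 1 droplet library. Cells are not mapped to mice, so no difference between the groups has a replicate check and none was tested. Both samples, the control one included, carry the same genotype entry (CD4-Cre+ PRMT5fl/fl). The groups were therefore taken from the titles, which read Prmt5-CKO (CRE) and Control (WT). The entries thus do not settle the Cre and Prmt5 genotype of the control mice. CD4-Cre acts from the double-positive thymocyte stage onward, and the deletion thus reaches both lineages. The age and sex of the mice are not given in the sources used here.

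Each alpha or beta T cell receptor chain is built by joining 1 V segment to a J segment (for beta with a D segment between them), and the joined exon is spliced to the constant exons, Trac for alpha and Trbc1 or Trbc2 for beta. In developing thymocytes the alpha gene can be joined again, with V segments farther from Trac replacing nearer ones, whereas a beta allele is normally joined only one time. The delta constant gene Trdc lies inside the alpha locus, and some V segments, marked dv in their symbol, can be used for alpha or delta chains. In C57BL/6 mice a stretch of the Trav array is repeated, and the extra copies carry a d or n in the symbol.

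In the reference annotation (GENCODE vM21, GRCm38) all 163 segments had a position and a transcript. The Trav segments lie on chromosome 14, between 242.8 and 1792 kb upstream of Trac, and the Trbv segments lie on chromosome 6. Of the 163 segments 33 are annotated as pseudogenes, 10 Trav segments carry a dv name, 39 are d copies and 34 are n copies. The copies matter for every value below: 108 of the 128 Trav segments have a family member that is at least 95% identical over the last 300 transcript bases, and no Trbv segment does. The ends of the segments on which the results turn are shown here, 5′ to 3′, from the GENCODE transcripts, with capitals at bases that differ from the first segment of each set.

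The Trav16 family, which leaned to CD8 cells, is shown by its 3 members: Trav16 (chr14:53743104-53743705, plus strand), Trav16n (chr14:53351028-53351621, plus strand) and Trav16d-dv11 (chr14:53047287-53047821, plus strand). Over the last 300 bases Trav16n was 98.7% and Trav16d-dv11 98.3% identical to Trav16.
Trav16: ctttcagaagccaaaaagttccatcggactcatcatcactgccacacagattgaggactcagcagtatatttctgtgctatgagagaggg
Trav16n: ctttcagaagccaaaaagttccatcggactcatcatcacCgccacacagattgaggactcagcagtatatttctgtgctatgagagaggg
Trav16d-dv11: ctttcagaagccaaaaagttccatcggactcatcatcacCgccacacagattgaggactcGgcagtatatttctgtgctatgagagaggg

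The Trav14 family, which leaned to CD4 cells, is shown by its segment numbered 3 in the 3 copies: Trav14-3 (chr14:53763173-53763694), Trav14n-3 (chr14:53370077-53370575) and Trav14d-3-dv8 (chr14:53078452-53079045), all on the plus strand. Only 3 of the last 90 bases of either copy differ from Trav14-3, so a read from the 3′ end of the V exon can tell them apart by few positions.
Trav14-3: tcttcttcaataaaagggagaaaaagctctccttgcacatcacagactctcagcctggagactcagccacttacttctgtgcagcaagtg
Trav14n-3: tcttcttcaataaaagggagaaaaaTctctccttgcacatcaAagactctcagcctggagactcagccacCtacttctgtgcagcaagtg
Trav14d-3-dv8: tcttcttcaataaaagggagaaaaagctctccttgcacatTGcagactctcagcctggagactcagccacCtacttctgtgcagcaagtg

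The Trbv12 segments, the Trbv family with the most unique molecular identifiers (UMIs, the count of captured molecules), are Trbv12-2 (chr6:41118851-41119364) and Trbv12-1 (chr6:41113550-41114067), on the plus strand and 89.3% identical over the last 300 bases.
Trbv12-2: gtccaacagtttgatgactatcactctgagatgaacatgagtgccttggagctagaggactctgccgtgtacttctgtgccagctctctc
Trbv12-1: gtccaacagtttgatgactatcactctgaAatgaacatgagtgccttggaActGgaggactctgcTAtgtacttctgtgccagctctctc

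Trav13-4-dv7 (chr14:53757356-53757921, plus strand), a dv segment with more UMIs in the CKO library, is shown with its d and n copies, which are 98% and 92% identical to it over the last 300 bases.
Trav13-4-dv7: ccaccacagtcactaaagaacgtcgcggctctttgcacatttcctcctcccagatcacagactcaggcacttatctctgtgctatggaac
Trav13d-4: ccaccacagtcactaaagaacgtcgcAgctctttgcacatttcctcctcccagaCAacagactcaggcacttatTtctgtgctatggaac
Trav13n-4: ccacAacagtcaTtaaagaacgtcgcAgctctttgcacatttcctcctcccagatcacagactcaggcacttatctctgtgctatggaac

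Trav11 (chr14:53519303-53519859, plus strand) encodes the alpha chain of invariant natural killer T (NKT) cells and is shown with Trav11d and the pseudogene Trav11n. The Trav11d transcript ends 1 base earlier, and its 89 bases match Trav11 at every position.
Trav11: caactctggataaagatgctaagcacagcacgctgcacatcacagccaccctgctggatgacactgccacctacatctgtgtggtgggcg
Trav11d: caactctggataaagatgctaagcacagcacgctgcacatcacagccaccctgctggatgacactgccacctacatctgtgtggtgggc
Trav11n: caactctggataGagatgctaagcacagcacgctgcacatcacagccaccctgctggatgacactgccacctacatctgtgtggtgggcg

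After cells with fewer than 500 genes or 10% or more mitochondrial UMIs were left out, 7660 CKO and 6712 control cells with 52033914 and 47273030 UMIs were kept, and 11 cell barcodes occurred in both libraries. Cells with a Cd4 UMI and no Cd8a or Cd8b1 UMI formed the CD4 gate (2453 CKO and 1984 control cells, median 6065 and 6141 UMIs). Cells with at least 2 Cd8a and Cd8b1 UMIs together and no Cd4 UMI formed the CD8 gate (1690 CKO and 2127 control cells, median 7105 and 7423 UMIs). Prmt5 itself had 3.80 UMIs per 1000000 UMIs (CPM) in CKO and 12.05 CPM in control CD4 cells. In CD8 cells it had 5.96 CPM in CKO and 17.2 CPM in control. Cells with a Trdc UMI made up 6.69% of CKO and 2.52% of control cells of the CD4 gate. In the CD8 gate they made up 9.94% in CKO and 2.91% in control. The 7 gamma delta T markers together stood at 67.3 CPM in CKO and 30.8 CPM in control CD4 cells. They stood at 122 CPM in CKO and 35.1 CPM in control CD8 cells, with 6 of the 7 higher in the CKO library in each gate. The 6 B cell markers together stood at 281 CPM in CKO and 280 CPM in control CD4 cells, and the 4 myeloid markers at 124 CPM in CKO and 76.2 CPM in control CD4 cells. The 3 effector CD8 markers (Gzma, Gzmb and Klrg1) together stood at 375 CPM in CKO and 89.2 CPM in control CD8 cells, all 3 higher in CKO. The 3 regulatory T cell markers (Foxp3, Il2ra and Ikzf2) stood at 178 CPM in CKO and 100.4 CPM in control CD8 cells, also all higher in CKO. In the CD4 gate they stood at 164 CPM in CKO and 204 CPM in control, all 3 lower in CKO. The part of these marker differences in the results below was not tested beyond the values given beside them for cells without a Trdc UMI and for cells without a Gzma or Klrg1 UMI. Cells with a Y-linked UMI and cells with an Xist UMI and no Y-linked UMI occurred in both libraries, so each pool held male and female mice. These subsets of cells serve below as a view of the spread within a library. All intervals are exact 95% intervals that cover counting error only, neither mice nor preparation. They are too narrow for UMIs of a segment, since UMIs of 1 cell come in groups, and cells with a UMI are therefore given beside many of them.

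V segments had few UMIs in these libraries, which were made with a 3′ kit. Over all kept cells the 163 segments had 7145 UMIs, 2125 from 26 Trbv segments and 5020 from 81 Trav segments, and 56 segments had none. Of the 33 pseudogenes 13 had a UMI, 164 UMIs in all. No joining segment had a UMI in the gates. Trbv segments gave 6.45 UMIs per 1000 Trbc1 and Trbc2 UMIs in CKO and 6.62 in control CD4 cells, and 6.69 in CKO and 7.32 in control CD8 cells. Trav segments gave more for their constant gene, 58.7 per 1000 Trac UMIs in CKO and 60.5 in control CD4 cells, and 67.1 in CKO and 63.9 in control CD8 cells. Identity between copies moved with capture: 1 of the 38 Trav segments with a copy identical over the last 300 bases had a UMI (3 UMIs), against 63 of the 70 whose closest copy was 95% to under 100% identical (median 35.5 UMIs). A segment without UMIs is therefore not shown to be unused.

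Trbv UMIs occurred in 336 of 2453 CD4 cells in CKO (13.7%) and 272 of 1984 in control (13.7%). In the CD8 gate they occurred in 248 of 1690 cells in CKO (14.7%) and 305 of 2127 in control (14.3%). Trav UMIs occurred in 22.1% of CKO and 25.8% of control CD4 cells, and in 20.8% of CKO and 21.9% of control CD8 cells. With every cell thinned to 2000 UMIs the Trbv share was 5.36% in CKO and 4.75% in control CD4 cells and 3.56% in CKO and 4.38% in control CD8 cells. The Trav share at that depth was 8.80% in CKO and 10.4% in control CD4 cells and 7.83% in CKO and 7.29% in control CD8 cells. Thinning left out 10 CKO and 4 control CD4 cells and 4 CKO and 2 control CD8 cells. In B cells (at least 2 Cd79a UMIs and no Cd3 UMI), which should lack both chains, 0 of 40 CKO cells and 0 of 40 control cells had a Trav or Trbv UMI, which allows a share of up to 7.5% in each library at median depths of 4229 and 4126 UMIs. The limit lies above the thinned Trbv shares. As that gate demands no Cd3d, Cd3e or Cd3g UMI, it leaves out B cells that carry such T cell RNA, and its cells still held Trbc2 at 33.9 CPM in CKO and 70.1 CPM in control.

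Cells with UMIs of more than 1 segment were counted for each chain. Most positive cells had a single UMI and could not show 2 segments, 89.3% in CKO and 88.2% in control for Trbv and 70.7% in CKO and 69.5% in control for Trav in the CD4 gate. Among CD4 cells with a Trbv UMI, 16 of 336 in CKO (4.76%, 2.75% to 7.62%) and 7 of 272 in control (2.57%, 1.04% to 5.23%) had UMIs of 2 or more Trbv segments. Among CD8 cells 15 of 248 in CKO (6.05%, 3.42% to 9.78%) and 12 of 305 in control (3.93%, 2.05% to 6.77%) did. No cell of either gate had 2 UMIs of each of 2 Trbv segments. At 2000 UMIs the CD4 numbers were 2 of 131 CKO cells and 0 of 94 control cells, and the CD8 numbers 0 of 60 CKO cells and 1 of 93 control cells, too few to compare. For Trav the shares of positive cells with 2 or more segments were 10.5% in CKO and 11.7% in control CD4 cells, and 10.5% in CKO and 9.44% in control CD8 cells. Among cells with 2 or more UMIs of the chain, 16 of 36 in CKO (44.4%, 27.9% to 61.9%) and 7 of 32 in control CD4 cells (21.9%, 9.28% to 40.0%) had 2 or more Trbv segments. In the CD8 gate 15 of 35 in CKO (42.9%, 26.3% to 60.6%) and 12 of 45 in control (26.7%, 14.6% to 41.9%) did. The same count for Trav was 57 of 159 in CKO and 60 of 156 in control CD4 cells, and 37 of 114 in CKO and 44 of 154 in control CD8 cells. T cells with a second alpha chain are known, and doublets and free RNA also give UMIs of a further segment. Their part was not tested.

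Summed over its segments the beta chain was close in the libraries and the alpha chain was slightly lower in CKO CD4 cells. The Trbv sum was 22.7 CPM in CKO and 22.7 CPM in control CD4 cells (ratio 1.0, 0.858 to 1.17), and 21.1 CPM in CKO and 20.6 CPM in control CD8 cells (1.02, 0.872 to 1.20). The Trav sum was 51.0 CPM in CKO and 58.9 CPM in control CD4 cells (0.866, 0.785 to 0.955), and 43.9 CPM in CKO and 43.8 CPM in control CD8 cells (1.0, 0.899 to 1.12). Trac moved with it in CD4 cells, at 869 CPM in CKO and 974 CPM in control cells (0.892), and stood at 654 CPM in CKO and 685 CPM in control CD8 cells (0.955). The spread within a library was larger than this difference for Trav in CD8 cells. Cells with a Y-linked UMI had 33.3 CPM in CKO and 50.5 CPM in control. Cells with Xist and no Y-linked UMI had 51.6 CPM in CKO and 41.9 CPM in control. In CD4 cells the same subsets had 51.5 CPM in CKO and 58.3 CPM in control (Y-linked UMI), and 48.6 CPM in CKO and 56.9 CPM in control (Xist). Within each library the Trav sum was higher in CD4 than in CD8 cells, by 1.16-fold (1.04 to 1.29) in CKO and 1.35-fold (1.22 to 1.49) in control cells. Trac was higher likewise, by 1.33-fold in CKO and 1.42-fold in control cells. The Trbv ratio of CD4 over CD8 was 1.08 (0.920 to 1.26) in CKO and 1.10 (0.942 to 1.28) in control cells.

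**Figure D1:**
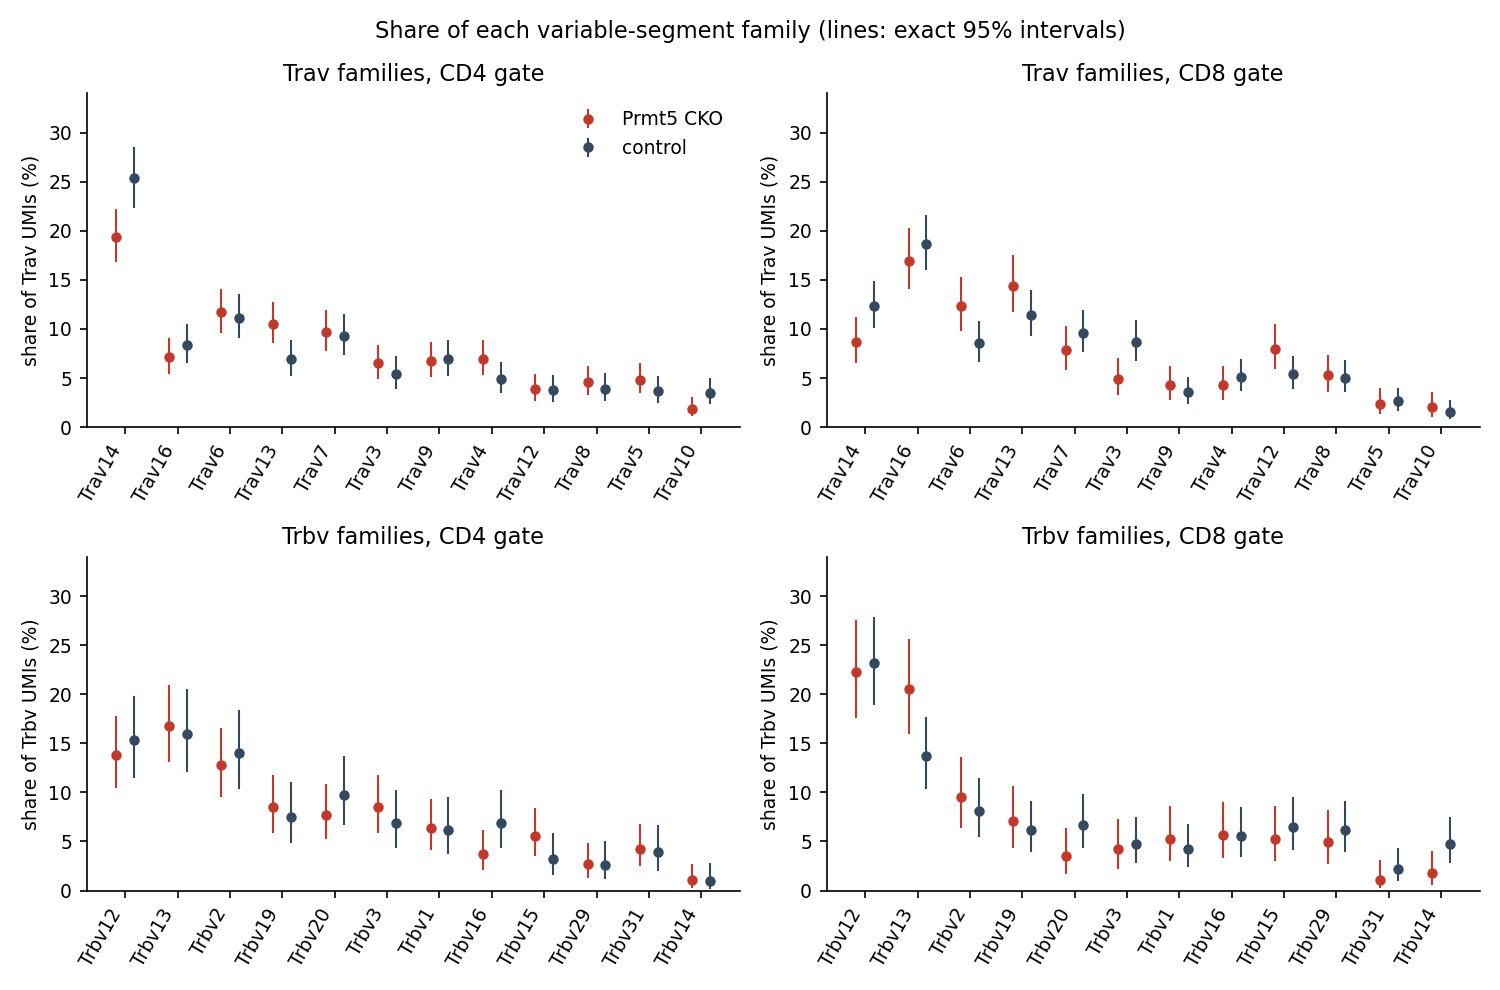
Share of each V family in the UMIs of its chain (y axis, percent) for the 12 Trav families (top) and 12 Trbv families (bottom) with the most UMIs, in the CD4 gate (left) and CD8 gate (right). Points are the Prmt5 CKO library (red) and the control library (blue), lines are exact 95% binomial intervals over UMIs; Trav14 leads in CD4 cells of both libraries and Trav16 in CD8 cells of both libraries.

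To compare repertoires apart from the total level, each segment and each family (segments that share the number in their name) was expressed as its share of the UMIs of its chain. UMIs were not scaled by length, so shares rank segments as captured and not as used. In CD4 cells the Trav14 family led with 19.4% of Trav UMIs in CKO (164 UMIs in 123 cells) and 25.4% in control cells (202 UMIs in 142 cells). In CD8 cells the Trav16 family led with 17.0% in CKO (100 UMIs in 63 cells) and 18.7% in control cells (142 UMIs in 98 cells). Among Trbv families Trbv12 and Trbv13 led in CD8 cells, Trbv12 with 22.3% in CKO and 23.2% in control cells and Trbv13 with 20.5% in CKO and 13.7% in control cells. The family plot shows this order with its intervals.

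Several families differed between the CD4 and CD8 lineages in the same direction in both libraries, which hold different mice. The Trav14 family had a larger share in CD4 than in CD8 cells, 19.4% against 8.66% in CKO (ratio 2.24, 1.63 to 3.13) and 25.4% against 12.4% in control cells (2.05, 1.60 to 2.65). Trav16 went the other way, with 7.10% in CD4 against 17.0% in CD8 cells in CKO (0.418, 0.298 to 0.582) and 8.41% against 18.7% in control cells (0.450, 0.331 to 0.606). Trav13 had 10.5% in CD4 against 14.4% in CD8 cells in CKO (0.730, 0.536 to 0.994) and 6.90% against 11.4% in control cells (0.603, 0.422 to 0.855). Trbv12 had 13.8% in CD4 against 22.3% in CD8 cells in CKO (0.621, 0.422 to 0.911) and 15.3% against 23.2% in control cells (0.660, 0.452 to 0.956). For these 4 families, and for no other family with at least 20 UMIs in each library, the interval left out 1 in both libraries.

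Counted by cells the directions were the same, though the intervals of Trav13 held 1. Trav14 UMIs occurred in 123 of 2453 CD4 and 41 of 1690 CD8 cells in CKO and in 142 of 1984 CD4 and 60 of 2127 CD8 cells in control. Trav16 UMIs occurred in 39 CD4 and 63 CD8 cells in CKO and in 42 CD4 and 98 CD8 cells in control, out of the same totals. Trbv12 UMIs occurred in 49 CD4 and 56 CD8 cells in CKO and in 43 CD4 and 76 CD8 cells in control. Trav13 UMIs occurred in 55 CD4 and 43 CD8 cells in CKO (cell ratio 0.881, 0.581 to 1.34) and in 38 CD4 and 57 CD8 cells in control (0.715, 0.461 to 1.1). The Trav13 leaning was turned round in CKO cells with a Y-linked UMI (ratio of shares 2.1, 1.02 to 4.76), against 0.231 in control cells with one. Without Trav13-4-dv7 its ratio was 0.891 (0.615 to 1.3) in CKO and 0.689 (0.473 to 0.998) in control cells. The Trbv12 ratio ran from 0.536 to 0.778 over the 4 subsets. The Trav14 and Trav16 leanings also held in both subsets of cells within each library. Trav14 made up 20.4% and 19.5% of Trav UMIs in CKO CD4 cells (Y-linked UMI and Xist) against 6.51% and 9.61% in CKO CD8 cells. It made up 24.4% and 25.8% in control CD4 cells against 14.6% and 13.8% in control CD8 cells. Trav16 made up 6.23% and 8.94% in CKO CD4 cells against 21.9% and 16.8% in CKO CD8 cells. It made up 6.57% and 9.64% in control CD4 cells against 16.5% and 19.5% in control CD8 cells.

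**Figure D2:**
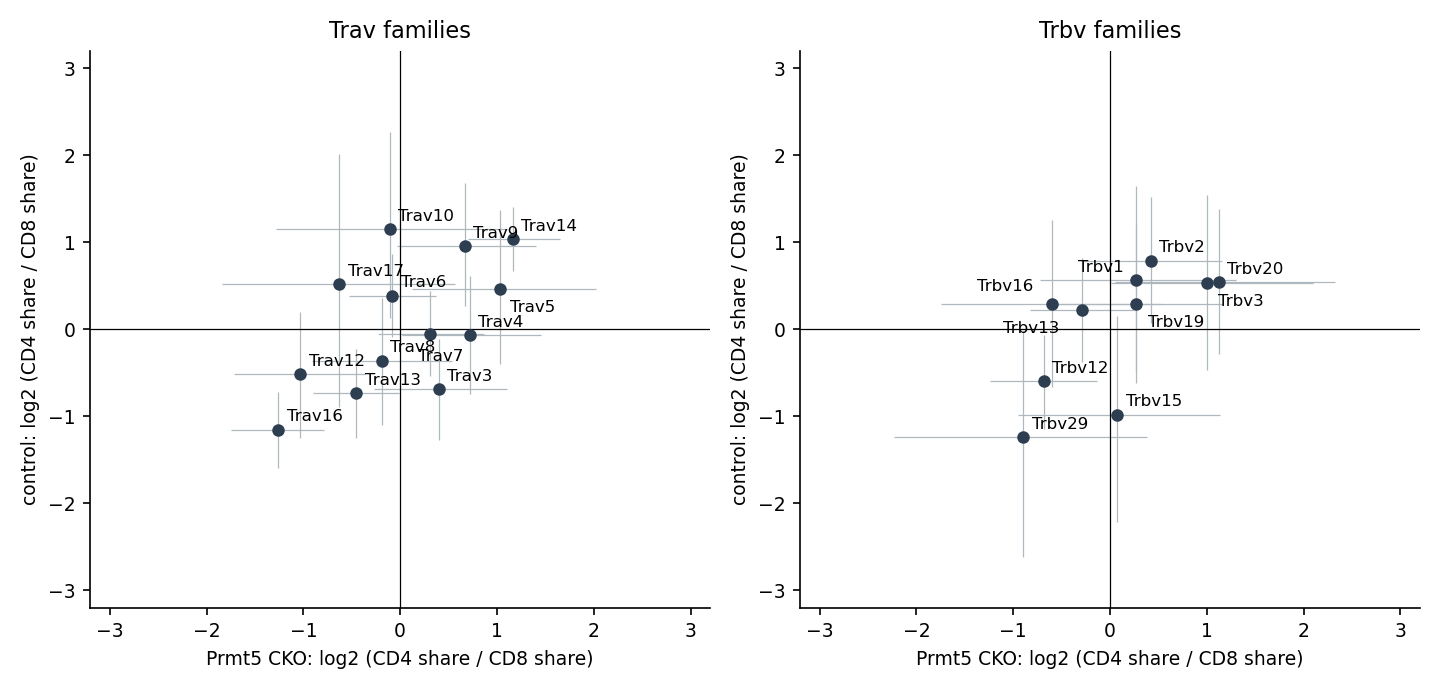
Log2 ratio of the CD4 share over the CD8 share of each family with at least 20 UMIs per library, in Prmt5 CKO (x axis) and control (y axis), for 13 Trav families (left) and 10 Trbv families (right). Lines are exact 95% intervals over UMIs; Trav14 lies at 1.16 in CKO and 1.03 in control, and Trav16 at -1.26 in CKO and -1.15 in control.

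Across families the log2 ratios of CD4 over CD8 in the CKO and control libraries were related (Trav families, Pearson r 0.57 and Spearman rho 0.51 over 13 families; Trbv families, r 0.65 and rho 0.76 over 10 families). They were less so across single segments (Trav r 0.44 over 21 segments; Trbv r 0.44 over 12 segments). The points share their libraries, the ratios of a chain are tied to each other because shares add up to a whole, and no p is given. Other families leaned in 1 library more than in the other. Trbv31, whose segment lies past the constant genes and in opposite direction to the rest, had a ratio of 4.01 (1.15 to 21.5) in CKO and 1.75 (0.657 to 4.93) in control cells. Trbv20 had 2.18 (1.03 to 5.02) in CKO and 1.46 (0.824 to 2.60) in control cells. Trbv29 had 0.538 (0.214 to 1.30) in CKO and 0.424 (0.163 to 0.989) in control cells. Trbv2 had 1.34 (0.818 to 2.23) in CKO and 1.73 (1.05 to 2.87) in control cells, and Trbv3 had 2.01 (1.01 to 4.28) in CKO and 1.44 (0.724 to 2.91) in control cells. Trbv1, Trbv16, Trbv19 and Trbv13-2 had intervals that held 1 in both libraries, with ratios from 0.659 to 1.48.

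Within families the copies did not all lean alike. Trav14d-3-dv8 leaned to CD4 cells in both libraries, with 43 UMIs in CD4 and 10 in CD8 cells in CKO (ratio of shares 3.00, 1.48 to 6.69) and 71 and 16 UMIs in control cells (4.23, 2.44 to 7.80). Trav14n-3, named after its values were seen, had 25 UMIs in 19 CD4 cells and 3 UMIs in 3 CD8 cells in CKO (5.81, 1.77 to 30.1). In control it had 39 UMIs in 21 CD4 cells and 20 UMIs in 11 CD8 cells (1.86, 1.06 to 3.37). Trav14-2 had 1.74 (0.954 to 3.33) in CKO and 2.05 (1.03 to 4.32) in control cells, where it turned to 0.894 among cells with a Y-linked UMI. Trav14-3 had 2.3 (1.11 to 5.23) in CKO and 1.73 (0.987 to 3.1) in control cells. It had 14.6 among CKO cells with a Y-linked UMI and 0.564 among CKO cells with Xist and no Y-linked UMI, and in control 0.398 and 4.99 in the same order. Trav14-1, named after its values were seen, had 1.34 (0.638 to 2.95) in CKO and 1.03 (0.570 to 1.88) in control cells. Trav16 itself had 0.263 (0.155 to 0.431) in CKO and 0.563 (0.362 to 0.863) in control cells. Trav16n had 0.418 (0.231 to 0.739) in CKO and 0.335 (0.188 to 0.575) in control cells. The d copy Trav16d-dv11, also named after its values were seen, had 16 UMIs in 6 CD4 cells and 4 UMIs in 4 CD8 cells in CKO (2.79, 0.899 to 11.5; cell ratio 1.03). In control it had 12 UMIs in 6 CD4 cells and 27 UMIs in 16 CD8 cells (0.424, 0.196 to 0.865). The ends printed for Trav16 and its copies differ from each other at 1 or 2 bases of the last 90, and those of Trav14-3 and its copies at 3 or 4. Reads on shared bases may have been dropped or placed on either copy by the counting.

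The count of segments past 1.5-fold between the lineages is given beside that of all genes. Among segments with at least 100 UMIs over the gates, 0 of 1 in CKO and 0 of 2 in control were past 1.5-fold on the CPM scale, against 10.1% of all genes in CKO and 11.9% in control. As a share of its chain 1 of the 2 in control, Trav3-3, was past it (0.663, 0.434 to 1.0). With 20 to 200 UMIs, a window set after the data were seen and used alike for all genes, 15 of 38 segments were past 1.5-fold higher in CD4 and 9 lower on the CPM scale in CKO, against 22.1% of all genes higher and 15.7% lower. In control cells 17 of 39 were higher and 6 lower, against 28.3% higher and 11.7% lower of all genes. The median log2 ratio was 0.28 for the segments and 0.08 for all genes in CKO, and 0.48 for the segments and 0.21 for all genes in control cells. Relative to the chain total 12 segments were higher and 11 lower in CKO, and 11 higher and 11 lower in control cells.

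Between CKO and control cells most segments and families were within counting error. In CD4 cells 1 segment had at least 100 UMIs over the libraries, Trav14d-3-dv8, and it was past 1.5-fold lower on the CPM scale and in chain share. In CD8 cells 0 of 2 were past 1.5-fold on either scale (Trbv12-2 and Trav16). Of all genes with at least 100 UMIs 4.66% were past 1.5-fold in CD4 cells and 6.27% in CD8 cells. With 20 to 200 UMIs and on the CPM scale, 4 of 39 segments were higher and 7 lower in CKO CD4 cells, against 13.0% of all genes higher and 14.0% lower. In CKO CD8 cells 11 of 37 were higher and 9 lower, against 20.3% of all genes higher and 9.34% lower. The median log2 ratio was -0.10 for the segments and -0.03 for all genes in CD4 cells, and 0.05 for the segments and 0.12 for all genes in CD8 cells. In CD4 cells the shares past the threshold thus lay near those of all genes. In CD8 cells 9 Trav segments were higher and 7 lower of 23, but 2 Trbv segments were higher and 2 lower of 14.

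Among Trbv segments with 20 to 200 UMIs, 2 of 12 in CD4 cells (Trbv15 and Trbv16) and 4 of 14 in CD8 cells (Trbv13-2, Trbv13-3, Trbv14 and Trbv20) were past 1.5-fold in chain share. Of these Trbv13-3 had an interval that left out 1. On the CPM scale the numbers were the same. Of all genes in that window 13.0% were past it higher and 14.0% lower in CD4 cells, and 20.3% higher and 9.34% lower in CD8 cells. Trbv12-2 had 44 UMIs in CKO and 43 in control CD4 cells (share ratio 0.836, 0.536 to 1.30). It had 48 in CKO and 68 in control CD8 cells (0.893, 0.604 to 1.31). Trbv2 had 48 UMIs in CKO and 43 in control CD4 cells (0.911), and 27 in CKO and 29 in control CD8 cells (1.18). Trbv13-2, one of the Trbv segments common in invariant NKT cells, had 33 UMIs in CKO and 23 in control CD4 cells (1.17). It had 26 in CKO and 20 in control CD8 cells (1.65, 0.883 to 3.11). The other Trbv segments of the named set (Trbv1, Trbv3, Trbv16, Trbv19, Trbv20, Trbv29 and Trbv31) had ratios from 0.474 to 1.26 over the gates, each with an interval that held 1. The Trbv13 family was the single Trbv family with an interval above 1 in a gate, with 58 UMIs in 54 cells in CKO and 49 UMIs in 46 cells in control CD8 cells (ratio 1.5, 1.01 to 2.24; cell ratio 1.48, 0.979 to 2.24). Without cells with a Trdc UMI the ratio was 1.33 (0.863 to 2.04), and without cells with a Gzma or Klrg1 UMI 1.5 (0.989 to 2.29). It had 63 UMIs in CKO and 49 in control CD4 cells (1.05, 0.711 to 1.56). Its member Trbv13-3, named after its values were seen, had 17 UMIs in CKO and 8 in control CD8 cells (2.69, 1.10 to 7.20), and 13 in CKO and 12 in control CD4 cells (0.884). By cells this was 15 in CKO and 8 in control CD8 cells (2.36, 0.939 to 6.43). Among cells without a Trdc UMI it was 9 in CKO and 8 in control (1.53, 0.523 to 4.55). Without cells with a Gzma or Klrg1 UMI the share ratio was 2.6 (0.982 to 7.61).

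Summed over its members, the Trav14 family had a smaller share of Trav UMIs in CKO than in control cells of both gates. Its share ratio of CKO over control was 0.766 (0.619 to 0.946) in CD4 cells and 0.700 (0.488 to 0.995) in CD8 cells. Counted by cells it was 0.701 (0.546 to 0.898) in CD4 and 0.860 (0.564 to 1.30) in CD8 cells, and 1.08 among CD8 cells with Xist and no Y-linked UMI. The share of UMIs was lower in CKO than in control in each of the 4 subsets. Among cells with a Y-linked UMI it was 20.4% in CKO and 24.4% in control CD4 cells, and 6.51% in CKO and 14.6% in control CD8 cells. Among cells with Xist and no Y-linked UMI it was 19.5% in CKO and 25.8% in control CD4 cells, and 9.61% in CKO and 13.8% in control CD8 cells. Its member with the most UMIs over the gates was Trav14d-3-dv8, with 43 UMIs in 38 cells in CKO and 71 UMIs in 62 cells in control CD4 cells (share ratio 0.571, 0.382 to 0.846). In the CD8 gate it had 10 UMIs in CKO and 16 in control (0.806, 0.327 to 1.89). Over all kept cells it had 102 UMIs in 86 cells in CKO and 166 UMIs in 142 cells in control. These were 11.2 cells per 1000 in CKO and 21.2 per 1000 in control (0.531, 0.401 to 0.699). In cells without a Trdc UMI the numbers were 81 of 6804 CKO and 141 of 6460 control cells (0.545, 0.410 to 0.722). The cell ratio was 0.627 (0.385 to 1.02) among cells with a Y-linked UMI and 0.449 (0.281 to 0.702) among cells with Xist and no Y-linked UMI. The n copy Trav14n-3 was named after its values were seen. In the CD4 gate it had 25 UMIs in 19 cells in CKO and 39 UMIs in 21 cells in control (0.605). In the CD8 gate it had 3 UMIs in 3 cells in CKO and 20 UMIs in 11 cells in control (0.194, 0.0368 to 0.653, over UMIs). Trav14-2 had 40 in CKO and 28 in control CD4 cells (1.35, 0.811 to 2.27) and 16 in CKO and 13 in control CD8 cells (1.59). The members thus did not all go the same way. A family ratio without Trav14d-3-dv8 is not given, so the smaller share is not shown to hold for the rest of the family.

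Other families differed in 1 gate. Trav13 was higher in CKO CD4 cells (10.5% in CKO and 6.90% in control, ratio 1.53, 1.08 to 2.18; in CD8 cells 1.26, 0.924 to 1.72). By cells Trav13 was at 55 in CKO and 38 in control CD4 cells (1.17, 0.760 to 1.82). Without Trav13-4-dv7, which had 20 UMIs in 11 CKO and 3 UMIs in 2 control CD4 cells, the share ratio was 1.25 (0.861 to 1.83). Among CD4 cells with a Y-linked UMI the Trav13 ratio was 4.42. Trav6 was higher in CKO CD8 cells (12.4% in CKO and 8.55% in control, 1.45, 1.02 to 2.06; in CD4 cells 1.05). Without cells with a Trdc UMI it was 1.37 (0.954 to 1.96), and without cells with a Gzma or Klrg1 UMI 1.34 (0.922 to 1.94). Trav3 was lower in CKO CD8 cells (4.92% in CKO and 8.68% in control, 0.567, 0.353 to 0.890; in CD4 cells 1.21). Its member Trav3-3 had 22 UMIs in 18 cells in CKO and 59 UMIs in 43 cells in control CD8 cells (0.481, 0.281 to 0.797), against 50 UMIs in CKO and 41 in control CD4 cells (1.15). Trav15, named after its values were seen, had 14 UMIs in 8 cells in CKO and 3 UMIs in 3 cells in control CD4 cells (4.4, 1.23 to 23.9). For these families the difference between the gates was not tested. Trav16 had 23 UMIs in CKO and 36 in control CD4 cells (0.603, 0.341 to 1.04), and 61 in CKO and 61 in control CD8 cells (1.29). Trav4-4-dv10 had 47 UMIs in 18 cells in CKO and 26 UMIs in 13 cells in control CD4 cells (1.71, 1.03 to 2.87). In the CD8 gate it had 12 UMIs in 4 cells in CKO and 30 UMIs in 12 cells in control (0.516, 0.241 to 1.04). Without cells with a Trdc UMI the CD4 ratio was 1.08 (0.605 to 1.92) in UMIs and 0.780 (0.325 to 1.85) in cells, and among cells with a Y-linked UMI it was 0.147 (1 UMI in CKO and 5 in control). In CKO 2 of the 18 CD4 cells carried 20 of the 47 UMIs. Trav5-4, named after its values were seen, had 38 UMIs in 28 cells in CKO and 19 UMIs in 13 cells in control CD4 cells (1.89, 1.06 to 3.46). Trav16d-dv11 had 4 UMIs in 4 cells in CKO and 27 UMIs in 16 cells in control CD8 cells (0.191, 0.0486 to 0.549).

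**Figure D3:**
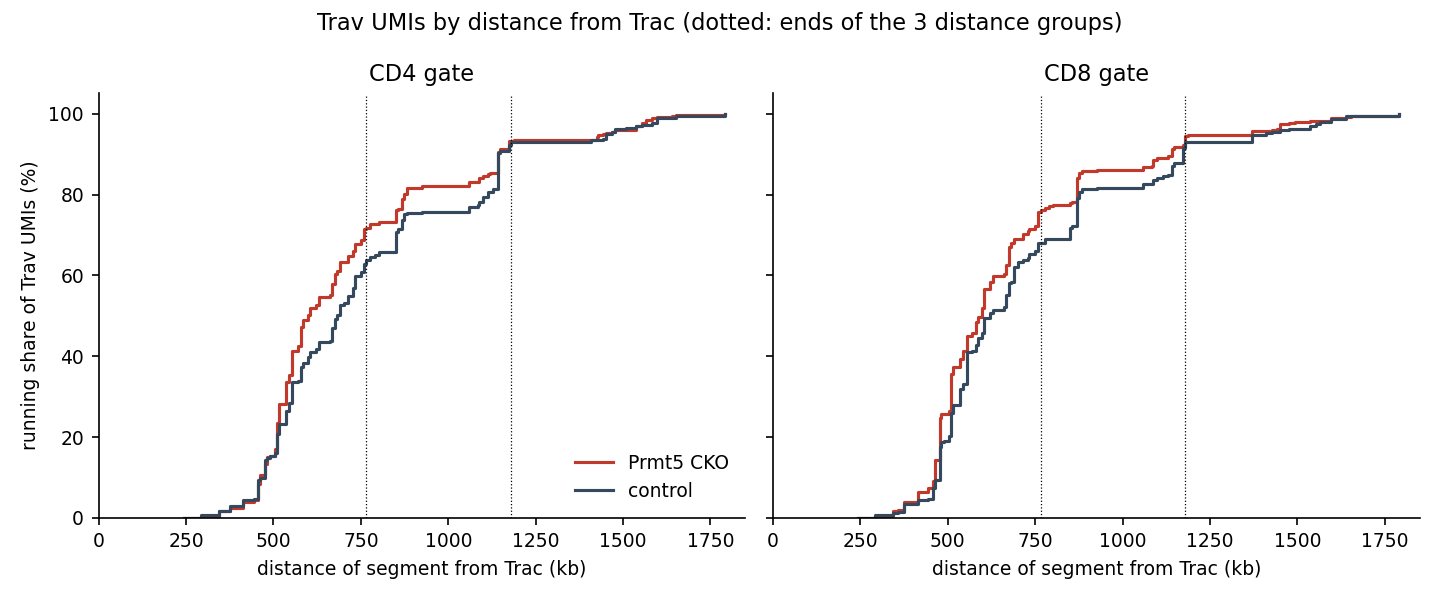
Running share of Trav UMIs (y axis, percent) with the distance of the segment from Trac (x axis, kb) in the CD4 gate (left) and CD8 gate (right) of the Prmt5 CKO library (red) and the control library (blue); dotted lines end the nearest and the middle group of segments. The CKO line runs above the control line through the middle of the array, with 71.7% in CKO against 63.7% in control CD4 cells at the end of the nearest group.

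Because nearer V segments are joined before farther ones, the 128 Trav segments were split by distance from Trac into a nearest, a middle and a farthest group of 43, 43 and 42 segments (242.8 to 765.7 kb, 776.7 to 1178 kb and 1187 to 1792 kb). The nearest group held 71.7% of Trav UMIs in CKO and 63.7% in control CD4 cells (ratio 1.13, 0.998 to 1.27). It held 76.1% in CKO and 68.0% in control CD8 cells (1.12, 0.983 to 1.27). The middle group held 21.5% in CKO and 29.2% in control CD4 cells (0.737, 0.604 to 0.898). It held 18.5% in CKO and 24.9% in control CD8 cells (0.744, 0.582 to 0.947). The farthest group held 6.75% in CKO and 7.03% in control CD4 cells (0.960), and 5.43% in CKO and 7.11% in control CD8 cells (0.765). The nearest group includes the dv segments Trav21-dv12, Trav13-4-dv7, Trav6-7-dv9 and Trav4-4-dv10. Among cells without a Trdc UMI its ratio was 1.098 (0.969 to 1.243) in CD4 and 1.122 (0.982 to 1.283) in CD8 cells. The middle group had 0.7915 (0.646 to 0.968) in CD4 and 0.716 (0.555 to 0.9175) in CD8 cells without a Trdc UMI. Over all kept cells, of which the gates are a part, the nearest group held 72.5% in CKO and 64.1% in control (1.13, 1.06 to 1.21). Counted by cells, 24.2% of CKO and 32.7% of control CD4 cells with a Trav UMI had one of the middle group (0.740, 0.584 to 0.935), as had 20.8% of CKO and 29.6% of control CD8 cells (0.702, 0.521 to 0.939). Of all cells of the CD4 gate, 384 of 2453 in CKO and 333 of 1984 in control had a UMI of the nearest group (0.933, 0.803 to 1.08). The same ratio was 1.115 (0.944 to 1.32) in CD8 cells and 1.02 (0.939 to 1.115) over all kept cells. The larger nearest share thus did not come with clearly more cells that had its UMIs. The middle UMI of the array lay at 598.3 kb in CKO and 681.8 kb in control CD4 cells, and at 598.3 kb in CKO and 621.1 kb in control CD8 cells.

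The nearest group holds no d or n copy, the middle group holds all 34 n copies and 5 d copies, and the farthest group holds the other 34 d copies. The n copies made up 12.2% of Trav UMIs in CKO and 15.4% in control CD4 cells (0.790, 0.602 to 1.03), and 12.1% in CKO and 15.7% in control CD8 cells (0.770, 0.566 to 1.04). The 5 d copies of the middle group made up 7.81% in CKO and 11.7% in control CD4 cells (0.669, 0.481 to 0.927), and 5.09% in CKO and 8.16% in control CD8 cells (0.624, 0.390 to 0.980). Without Trav14d-3-dv8 these d copies were level in CD4 cells, with 23 UMIs in CKO and 22 in control (0.986, 0.525 to 1.855). In CD8 cells they then had 20 UMIs in CKO and 46 in control (0.561, 0.314 to 0.9675). The 34 farthest d copies had ratios of 0.943 (0.555 to 1.60) in CD4 and 0.946 (0.520 to 1.70) in CD8 cells. Without its member Trav14d-3-dv8 the middle group had a ratio of 0.809 (0.641 to 1.02) in CD4 and 0.738 (0.571 to 0.951) in CD8 cells. Without cells with a Gzma or Klrg1 UMI the whole middle group had 0.812 (0.634 to 1.04) in CD8 cells. Without Trav14d-3-dv8 as well, it had 0.816 (0.629 to 1.05). Segments with a d in the symbol had 5.86 CPM in CKO and 9.17 CPM in control CD4 cells (0.639, 0.485 to 0.840). They had 3.88 CPM in CKO and 5.30 CPM in control CD8 cells (0.731, 0.510 to 1.04). Trav14d-3-dv8 gave 43 of their 97 UMIs in CKO and 71 of their 124 in control CD4 cells. In CD8 cells it gave 10 of 52 in CKO and 16 of 92 in control. The level of the d segments without it is not given. Segments with an n had 6.22 CPM in CKO and 9.09 CPM in control CD4 cells (0.684, 0.521 to 0.895). They had 5.29 CPM in CKO and 6.86 CPM in control CD8 cells (0.772, 0.567 to 1.04). Segments with neither letter had 38.9 CPM in CKO and 40.7 CPM in control CD4 cells (0.957, 0.853 to 1.07). They had 34.7 CPM in CKO and 31.6 CPM in control CD8 cells (1.10, 0.969 to 1.25). Position in the array and membership of the copies cannot be told apart in these data. Across segments with 20 or more UMIs the log2 ratio of CKO over control fell with distance from Trac (Spearman rho -0.37 over 27 segments in CD4, -0.30 over 23 in CD8 and -0.41 over 56 in all kept cells). The segments share 2 libraries and reads between copies, and no p is given.

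The shift was uneven within the libraries. In CD4 cells the nearest group held 69.9% in CKO and 61.5% in control cells with a Y-linked UMI, and 71.0% in CKO and 66.4% in control cells with Xist and no Y-linked UMI. In CD8 cells it held 72.2% in CKO and 73.2% in control cells with a Y-linked UMI, and 76.9% in CKO and 63.2% in control cells with Xist and no Y-linked UMI. The d and n copies together made up 27.0% in CKO and 30.5% in control CD4 cells with a Y-linked UMI, and 24.3% in CKO and 24.8% in control CD8 cells with one. In cells with Xist and no Y-linked UMI they made up 23.6% in CKO and 30.0% in control CD4 cells, and 20.4% in CKO and 31.1% in control CD8 cells. Prmt5, the deleted gene, lies on the same chromosome, 283 kb past Trac.

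**Figure D4:**
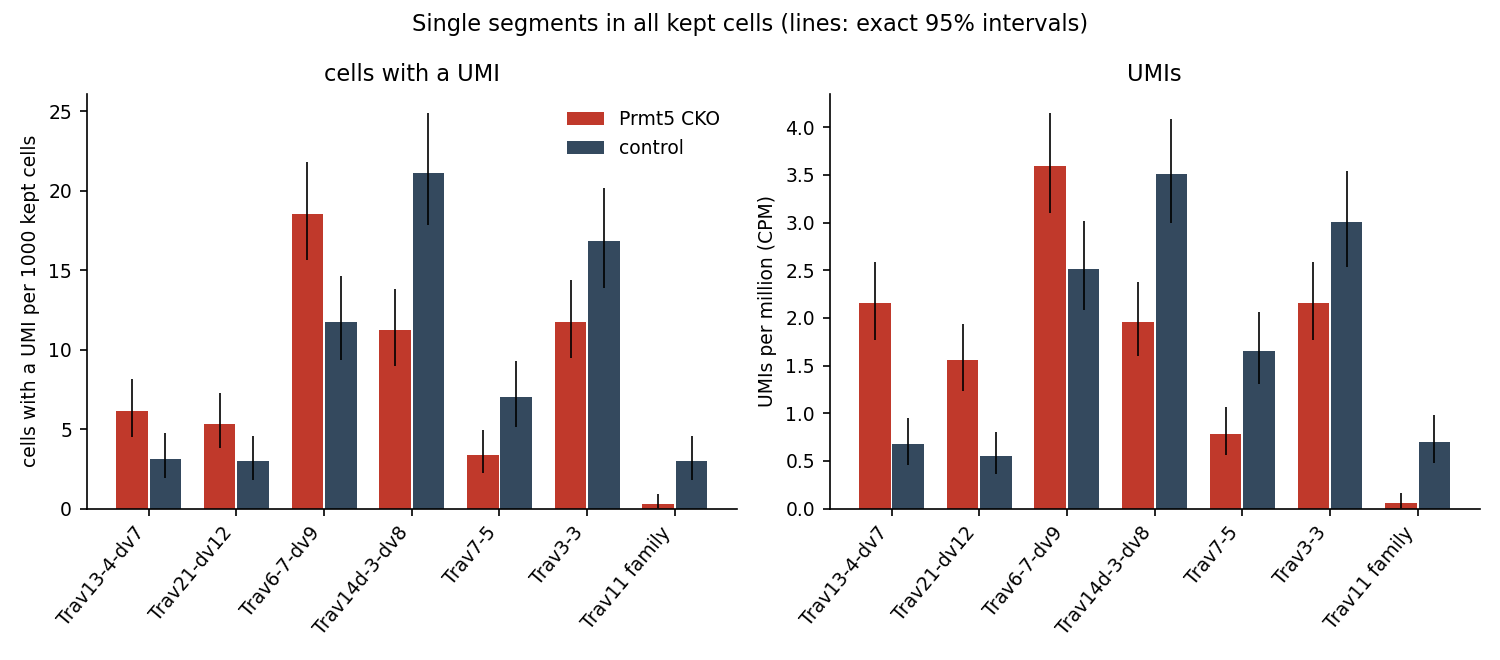
Cells with a UMI per 1000 kept cells (left) and UMIs per 1000000 UMIs (right) of 6 Trav segments and of the Trav11 family in the Prmt5 CKO library (red) and the control library (blue); lines are exact 95% intervals. Trav13-4-dv7 differs more in UMIs than in cells, and the Trav11 family had 2 cells in CKO against 20 in control.

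The dv segments, which alpha and delta chains share, were as a group close in CD4 cells, at 12.5 CPM in CKO and 11.98 CPM in control (1.05, 0.850 to 1.30). They stood at 9.47 CPM in CKO and 8.24 CPM in control CD8 cells (1.15, 0.898 to 1.47). Over all kept cells they were higher in CKO when counted by UMIs, at 12.9 CPM against 10.8 CPM in control (1.19, 1.06 to 1.34). These UMIs lay in 416 of 7660 CKO and 348 of 6712 control cells. In CKO 35 cells with at least 4 of these UMIs carried 217 of the 673. In control 21 such cells carried 108 of the 512. Outside the gates the dv segments stood at 15.3 CPM in CKO and 12.6 CPM in control (1.21, 1.02 to 1.45). In kept cells without a Trdc UMI they stood at 12.1 CPM in CKO and 10.7 CPM in control. Single members differed in both directions and are given over all kept cells, where 8 of the 10 had at least 20 UMIs. The cell ratio had an interval above 1 for 3 of the 8. For Trav14d-3-dv8 the interval lay below 1, as given above, and it held 1 for the other 4, from Trav16d-dv11 (0.689) to Trav15-2-dv6-2 (1.97), both named after their values were seen. Trav13-4-dv7, named after its values were seen, had 112 UMIs in CKO and 32 in control (share ratio 3.40). Of the cells 47 of 7660 CKO and 21 of 6712 control cells had a UMI (cell ratio 1.96, 1.15 to 3.45). In CKO 13 cells with at least 4 UMIs carried 76 of the 112, and no control cell had that many. Trav21-dv12, also named after its values were seen, had 81 UMIs in 41 cells in CKO and 26 UMIs in 20 cells in control (cell ratio 1.8, 1.03 to 3.24). Trav6-7-dv9 had 187 UMIs in 142 cells in CKO and 119 UMIs in 79 cells in control (cell ratio 1.58, 1.19 to 2.10). In the gates it had 56 UMIs in CKO and 39 in control CD4 cells (share ratio 1.35, 0.884 to 2.09) and 54 in CKO and 43 in control CD8 cells (1.62, 1.06 to 2.48). The CD8 ratio was 0.802 among cells with a Y-linked UMI and 1.38 (0.874 to 2.18) without cells with a Gzma or Klrg1 UMI.

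Trdc moved with the first 2 of these. Of the cells with Trav13-4-dv7, 17 of 47 in CKO and 5 of 21 in control had a Trdc UMI. Of those with Trav21-dv12, 16 of 41 in CKO and 6 of 20 in control had one. The shares compare with 11.2% of all kept CKO and 3.75% of all kept control cells. In cells with at least 2 Trdc UMIs and no Cd4, Cd8a or Cd8b1 UMI (345 in CKO, 82 in control), dv segments gave 40 of 61 Trav UMIs in CKO and 14 of 20 in control. Among cells without a Trdc UMI the cell ratio was 1.78 (0.940 to 3.50) for Trav13-4-dv7, 1.70 (0.848 to 3.53) for Trav21-dv12 and 1.53 (1.15 to 2.06) for Trav6-7-dv9. The gamma delta markers were higher in the CKO library in each gate, as given above. Their part in these results was not tested. Trav6-7-dv9 had a cell ratio of 1.14 (0.712 to 1.86) among cells with a Y-linked UMI and 1.72 (1.15 to 2.62) among cells with Xist and no Y-linked UMI. Trav7-5, a segment with no dv name that was named after its values were seen, had 41 UMIs in 26 cells in CKO and 78 UMIs in 47 cells in control (cell ratio 0.485, 0.288 to 0.799).

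Trav11 was nearly missing from the CKO library. Trav11 had 0 UMIs in CKO and 27 UMIs in 16 cells in control over all kept cells, and 0 of 7660 CKO cells allows a share of up to 0.0392%. With Trav11d and Trav11n, 2 of 7660 cells in CKO (0.0261%, 0.00316% to 0.0943%) and 20 of 6712 in control (0.298%, 0.182% to 0.460%) had a UMI of the family. This is a cell ratio of 0.0876 (0.00993 to 0.361). In the CD4 gate 0 of 2453 CKO and 5 of 1984 control cells had one. In the CD8 gate 1 of 1690 CKO and 2 of 2127 control cells had one, and outside the gates 1 of 3517 CKO and 13 of 2601 control cells. The control cells came from both subsets, 6 with a Y-linked UMI and 13 with Xist and no Y-linked UMI.

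Zbtb16, which encodes PLZF, the factor that marks NKT cells and some gamma delta T cells, was read beside it. Cells with a Zbtb16 UMI numbered 61 in CKO and 80 in control. Of these 0 of 61 in CKO, which allows a share of up to 4.92%, and 8 of 80 in control (10.0%, 4.42% to 18.8%) had a Trav11 family UMI. A Trdc UMI was present in 90.2% of the 61 and 13.8% of the 80. In the CD4 gate Zbtb16 stood at 0.785 CPM in CKO and 4.51 CPM in control (0.174, 0.0877 to 0.320). The difference was smaller over all kept cells, at 1.86 CPM in CKO and 3.66 CPM in control (0.509, 0.393 to 0.657). Outside the gates Zbtb16 stood at 3.63 CPM in CKO and 6.22 CPM in control (0.583, 0.4295 to 0.789). In the CD8 gate the ratio was 0.5175 (0.1185 to 1.79). The 3 genes of the NKT list (Zbtb16, Klrb1c and Cd1d1) together stood at 26.5 CPM in CKO and 33.3 CPM in control over all kept cells, all 3 lower in CKO. In the CD4 gate 0 of the 3 and in the CD8 gate 1 of the 3 were higher in CKO. How far these genes mark NKT cells here was not tested. Trav1, the alpha segment of mucosal-associated invariant T cells, had 3 UMIs in CKO and 4 in control CD4 cells, and 3 in CKO and 5 in control CD8 cells, too few to compare.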

How the data were processed

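The authors deposited, per sample, a filtered matrix of UMI counts per gene and cell barcode, made with Cell Ranger 3.1.0 per the file headers; the submitters' processing notes also name CASAVA 1.8, Seurat 2.3.4 and mm10, with no role. Libraries came from the 10x 3′ kit, so a V segment is counted only where a read reaches it, and reads on bases shared by copies may have been lost. Counts were used as deposited. Cells were kept if they had 500 or more genes and if mitochondrial UMIs were under 10%, no doublet caller was run, and UMIs were summed per segment, family, gate and library. With 1 library per group no test was run; intervals are exact Poisson, Clopper-Pearson or conditional binomial intervals (scipy 1.17.1), and the ratio code was checked on simulated data. Sequences and positions come from GENCODE vM21. Segments were named by a rule: the 8 Trav and 8 Trbv segments with the most UMIs in the gates, segments with at least 100 UMIs and the most extreme ratios, and invariant chain segments; exceptions are marked. The members, lists and rules were chosen with earlier results of these data known. Families, the window of 20 to 200 UMIs, cells without Trdc, cells without Gzma or Klrg1 and values without a single segment were added after the data were seen.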

Additional observations from a re-analysis of the deposited data

Results flagged for a closer look

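Among cells in neither gate (3517 in CKO and 2601 in control), 45 segments had at least 20 UMIs. As a share of their chain 11 were past 1.5-fold higher and 9 past 1.5-fold lower in CKO. The share of all genes past 1.5-fold is not given for these cells, so the counts are not read as a result about the segments. Of the 45 segments 4 had an interval above 1 and were picked out for a signal above that of control in cells outside the gates. Trav13-4-dv7 had 61 UMIs in 26 cells in CKO and 14 UMIs in 10 cells in control (3.58). Trav21-dv12 had 61 UMIs in 26 cells in CKO and 13 UMIs in 11 cells in control (3.85). Trav6-7-dv9 had 77 UMIs in 56 cells in CKO and 37 UMIs in 25 cells in control (1.71). Trav14-3 had 45 UMIs in 24 cells in CKO and 20 UMIs in 17 cells in control (1.85; cell ratio 1.04). Counted by cells the intervals of the first 2 held 1 (1.92, 0.897 to 4.47, and 1.75, 0.835 to 3.92), and 13 of the 26 CKO cells of each had a Trdc UMI. The interval lay below 1 for 3 segments. Trav14d-3-dv8 had 49 UMIs in 40 cells in CKO and 79 UMIs in 66 cells in control (0.509; cell ratio 0.448, 0.295 to 0.674). Trav7-5 had 18 UMIs in CKO and 31 in control (0.477), and Trav7-3 had 6 UMIs in CKO and 18 in control (0.274).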

How the results depend on the processing

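No paired analysis was possible because each group has 1 library. Of the main values under the alternatives 74 stayed the same and 28 moved. For single segments 496 stayed, 44 moved and 4 reversed, and the cause was not tested. In cells with a Y-linked UMI the ratio of CKO over control was 1.26 for the Trbv sum in CD4 cells and 0.660 for the Trav sum in CD8 cells, which was 1.23 in cells with Xist and no Y-linked UMI. The number of segments past 1.5-fold depends on the least number of UMIs. For CKO over control in CD4 cells it was 5, 11 and 40 with at least 50 UMIs, 20 UMIs and 1 UMI on each side, and 0 with the stricter cell filter, the stricter gates and in either sex subset, where fewer cells leave no segment at 100 UMIs. In CD8 cells it was 2, 20 and 45. For CD4 over CD8 it was 7, 23 and 51 in CKO, and 1 without the 6% of cells with the most UMIs. In control it was 7, 22 and 59, and 0 with the stricter filter, without the top 6%, with stricter gates, in either subset, without Trdc cells, relative to all UMIs and by cells. The share of all genes is given above for at least 100 UMIs and for 20 to 200 UMIs only. The counts under the other settings are therefore not read as a result about the segments. Reversed were Trav14-2, CD4 over CD8 in control (0.894, Y-linked UMI), Trav14-3, CD4 over CD8 in CKO (0.564, Xist), Trav4-4-dv10, CKO over control in CD4 (0.147, Y-linked UMI), and Trav6-7-dv9 in CD8 (0.802, Y-linked UMI). The share of CD4 cells with 2 or more Trbv segments gave no ratio at 2000 UMIs, as no control cell had them. Depth limits all but a few segments to under 100 UMIs per comparison.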
